A study of Homo sapiens with 4 samples.

Results

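The genes examined here either arrest the cell cycle or answer to the p53 tumour suppressor, and their RNA was compared between cadmium-exposed and control breast cancer cells: CDKN1A, CDKN1B, MDM2, GADD45A, GADD45B, TP53I3, SESN1, RRM2B and PPM1D. They were taken by name, each matched exactly 1 Ensembl identifier, and they are 9 of the 61541 genes in the count table. RNA-seq was performed on MDA-MB-231, a mesenchymal-like human breast cancer line whose p53 is mutant. The cadmium group had been selected over many passages in cadmium sulphate, the last of them at 10 µM, and the control group was the same line without treatment. Each group had 2 libraries (n = 2), here called control 2 and control 3, after the numbers in the table, and cadmium 1 and cadmium 2. Because the exposed cells were selected by passaging, an effect of cadmium and the history of a selected culture cannot be told apart in these samples, and in bulk RNA fewer cells of a kind and less RNA per cell cannot be told apart either.

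In cells with intact p53, DNA damage stabilizes the protein, which then switches on a set of target genes. CDKN1A encodes p21, an inhibitor of cyclin-dependent kinases (CDKs) and the best known arrest gene of that set, while MDM2 encodes the ubiquitin ligase that removes p53 and so closes a feedback loop. Several of these genes also answer to stress routes that do not need p53, and mutant p53 has usually lost the ability to switch on its normal targets. CDKN1B, which encodes the CDK inhibitor p27, is controlled largely after transcription and is listed here for its role in arrest.

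None of the 9 genes passed the test for a difference between the groups. DESeq2 called 0 of 9 higher and 0 of 9 lower at an adjusted p-value below 0.1, and 0 of 9 had an unadjusted p-value below 0.05. Of all 19816 genes with an adjusted p-value, 0.601% were called higher, 0.535% were called lower and 6.92% had an unadjusted p-value below 0.05 in either direction, so for 9 genes a count of 0 is close to that background. The quasi-likelihood test of edgeR and limma-voom also called 0 of 9 genes, as they called 0 genes in the whole table, with 0 of 9 at an unadjusted p-value below 0.05 under either. The median log2 fold change of the 9 genes, cadmium over control, was 0.05, beside -0.03 over all tested genes that averaged 10 normalized counts or more. With 2 libraries per group this does not show that the genes are alike in both groups, and the 95% interval of each change is given with its value. Among genes of the same families, GADD45G rose by DESeq2, a call that edgeR and limma-voom did not make.

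The libraries held 51934729 to 61916007 reads assigned to genes. The mates of a fragment were counted singly, so fragments were fewer. Among the 12924 genes that averaged 100 normalized counts or more, the controls differed by a median absolute log2 ratio of 0.39, against 0.11 for the cadmium libraries, so the control pair set most of the error. The markers VIM, CD44, AXL, CAV1 and MSN of this mesenchymal-like line had summed normalized counts of 268861 to 316368 in all libraries. Within that sum MSN had 38172 and 71613 in control 2 and control 3, and 92443 and 98154 in the cadmium libraries. Both cadmium libraries were below both controls for VIM and CAV1, and the groups overlapped for CD44 and AXL. ESR1 and PGR, the oestrogen and progesterone receptor genes, had at most 29.6 normalized counts. The epithelial genes CDH1, GATA3 and EPCAM were detected, with EPCAM at 2410 in control 2 against 662 to 774 elsewhere and CDH1 at 615 in control 3 against 107 to 169 elsewhere. Of the leukocyte markers examined CD3E was at 0 in every library, PTPRC reached 144 in control 3, and CD14 had 221 and 133 in the controls beside 68.7 and 120.0 in the cadmium libraries. The part of these differences in any result was not tested.

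Sequence matches to the p53 response element near the starts of these genes are shown first. A well known p53 binding element of CDKN1A lies upstream of its main start. RefSeq start sites (GRCh38.p14) were given for 7 of the 9 genes, all but GADD45A and RRM2B, and the reference genome hg38 was scanned from 5000 bases before to 5000 bases after each start for the p53 response element, with both 4-base cores intact and at most 2 mismatches in 20 bases. A match was found near CDKN1A and near GADD45B, that is in 2 of 7 genes, beside 5.82% of all 27305 genes scanned in the same way. The CDKN1A match (chr6:36676449-36676468, plus strand) began at position -2265 relative to the start and ran across the outermost annotated exon start of the gene. The GADD45B match (chr19:2478021-2478040, plus strand) began at position 1894, in an untranslated stretch of an exon. Both are shown 5′ to 3′ with the cores in capitals.
CDKN1A: gaaCATGtcccaaCATGttg
GADD45B: agaCTTGgttgaaCTTGgtt

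A match of letters is a description and not evidence of binding in these cells. Elements with an altered core or more than 2 mismatches were not looked for, so a gene without a match may still hold one. The study concerned the metal-responsive factor MTF-1 and its relation to FOS and JUN. Promoter windows of 300 bases (250 before and 50 after each RefSeq start) were therefore also searched on both strands. The paper placed most changes in MTF-1 binding away from gene starts and reported no enriched MTF-1 motif. Promoter matches thus do not stand for its changed sites. The core of the metal response element (TGCACNC or TGCGCNC) was in a window of 4 of 7 genes, GADD45B, MDM2, PPM1D and SESN1, and in 33.4% of all 27305 genes. The AP-1 motif TGANTCA was in a window of MDM2, that is 1 of 7 genes, and in 9.37% of all genes. MDM2 had overlapping matches to the core, one on each strand. The core and the AP-1 match lie in windows of different MDM2 starts. The stretch around the plus-strand match (chr12:68808108-68808130, plus strand) and the AP-1 match (chr12:68808891-68808913, plus strand) are shown with the motif in capitals.
MDM2 metal response core: cggttgtgTGCGCGCgcacaaat
MDM2 AP-1: gggcaggtTGACTCAgcttttcc

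Transcript levels were compared between genes as TPM, a scale that divides counts by exon length and gives each library the same total. GADD45B, CDKN1A and GADD45A were the most abundant of the 9 genes in both groups. In control cells GADD45B had 104 and 157 TPM, CDKN1A had 88.3 and 166 TPM and GADD45A had a mean of 120.0 TPM with 139 in control 2, and the ranges of neighbours in that order overlapped. CDKN1B, MDM2 and RRM2B followed at means of 28.6, 28.3 and 21.9 TPM, again with overlapping ranges. TP53I3 at 15.2, PPM1D at 7.83 and SESN1 at 3.07 TPM were each separated from the next gene. In cadmium-exposed cells the ranges of neighbouring genes did not overlap anywhere in the order. There GADD45B with a mean of 158 TPM was followed by GADD45A at 123 and CDKN1A at 98.4, and MDM2 at 36.5 stood above CDKN1B at 31.5. The order of RRM2B, TP53I3, PPM1D and SESN1 was the same in both groups.

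**Figure D1:**
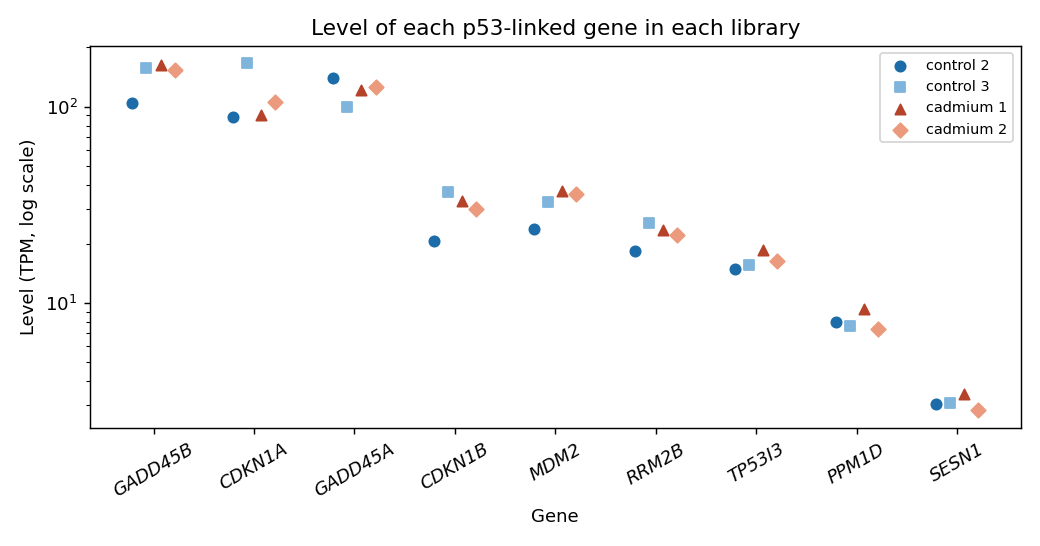
Level of each of the 9 genes in each library, in TPM on a log axis, with 1 point per library and genes ordered by their mean in control cells. Control 2 and control 3 lie apart for CDKN1A (88.3 and 166 TPM), while the cadmium libraries (90.9 and 106 TPM) lie between them, and SESN1 is lowest at 2.83 to 3.45 TPM.

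Differences between groups were then tested on normalized counts, which are counts divided by a size factor for each library. CDKN1A (ENSG00000124762, chromosome 6, 36676460 to 36687337, hg38, plus strand) had normalized counts of 3651 and 6372 in control 2 and control 3, beside 3463 and 4198 in the cadmium libraries. Control 3 was the high library, and cadmium 2 lay between the controls, so the groups overlapped. The means were 5012 ± 1924 in control cells and 3831 ± 519 with cadmium (SD, n = 2 per group). On the log2 scale the change, cadmium over control, was -0.39 (SE 0.35, 95% interval -1.08 to 0.31, adjusted p-value 1.00 by DESeq2). This interval leaves room for a level 0.472 times that of control and for one 1.24 times as high.

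The value for CDKN1A rested on which control was used. Without control 2 its log2 change was -0.74 (DESeq2 adjusted p-value 3.56e-05), and without control 3 it was 0.06 (adjusted p-value 0.868). The fit without control 2 takes its error from the closely matched cadmium pair and assumes that the lone control varies as little. In that fit 7.43% of all genes were called lower, so a call there is not rare. With all libraries CDKN1A had the opposite sign to the genes around it, a difference that was not tested. Its 40 nearest expressed genes (34757505 to 41039221) had a median log2 change of 0.37, and the value for CDKN1A minus that median was -0.76. An antisense gene, DINOL, shares 4.87% of the CDKN1A exon length and had at most 2 reads in a library.

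CDKN1B (ENSG00000111276, chromosome 12, 12685498 to 12722369, plus strand) encodes p27, which binds cyclin E with CDK2 and holds cells before DNA synthesis. Its normalized counts were 2647 and 4320 in control 2 and control 3, and 3873 and 3682 in cadmium 1 and cadmium 2. Here control 2 was the low library and both cadmium libraries lay between the controls, so that the log2 change was 0.12 (SE 0.33, 95% interval -0.53 to 0.76, DESeq2 adjusted p-value 1.00). It was -0.20 without control 2 and 0.50 without control 3, where it was called with an adjusted p-value of 0.00317.

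MDM2 (ENSG00000135679, chromosome 12, 68808177 to 68845544, plus strand) had normalized counts of 2729 and 3489 in the controls and 3923 and 3945 in the cadmium libraries. Both cadmium libraries were above both controls and close to each other. MDM2 had a log2 change of 0.34 (SE 0.27, 95% interval -0.19 to 0.87, unadjusted p-value 0.211, DESeq2 adjusted p-value 0.983), the largest upward value of the 9 genes. The 40 nearest expressed genes had a median of 0.18. Without control 3 the log2 change of MDM2 was 0.52 (DESeq2 adjusted p-value 0.00182). Exons of other genes lie on 14.7% of the MDM2 exon length, among them those of CPM on the other strand, which had 298 to 433 reads, and the counter was left at its default, which drops reads that fall on both.

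PPM1D (ENSG00000170836, chromosome 17, 60600193 to 60666280, plus strand) encodes WIP1, a phosphatase that, like MDM2, shuts p53 signalling down. Its normalized counts were 1043 and 918 in the controls and 1108 and 919 in the cadmium libraries. The lower library of each group had nearly the same value, and the groups overlapped, with a log2 change of 0.05 (SE 0.29, 95% interval -0.51 to 0.61, DESeq2 adjusted p-value 1.00).

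GADD45A and GADD45B encode small stress sensors that act on the MTK1 kinase and on the cell cycle kinase CDK1. GADD45A (ENSG00000116717, chromosome 1, 67685201 to 67688334, plus strand) had normalized counts of 3703 and 2463 in control 2 and control 3, and 2970 and 3194 in the cadmium libraries. Control 2 was the high library, the opposite of CDKN1A, and both cadmium libraries lay inside the control range. The group means of GADD45A were nearly equal (log2 change -0.0004, SE 0.31, 95% interval -0.615 to 0.614, DESeq2 adjusted p-value 1.00), and the change was 0.32 without control 2 and -0.28 without control 3. GADD45B (ENSG00000099860, chromosome 19, 2476122 to 2478259, plus strand) had 3055 and 4297 in the controls and 4418 and 4324 in the cadmium libraries. Both cadmium libraries were above both controls, but the nearer cadmium library exceeded control 3 by very little. For GADD45B the log2 change was 0.25 (SE 0.29, 95% interval -0.32 to 0.82, DESeq2 adjusted p-value 1.00). It was 0.02 without control 2 and 0.51 without control 3, where the adjusted p-value was 0.00188.

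The calls of CDKN1B, MDM2 and GADD45B without control 3 were made in a fit that called 13.5% of all genes higher and 17.7% lower, and the fit without control 2 called 7.36% higher beside the 7.43% lower. In each of these genes control 2 was the lowest of the 4 libraries.

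The remaining genes act on redox state and nucleotide supply. TP53I3 (ENSG00000115129, chromosome 2, 24077433 to 24085861, minus strand) encodes a quinone oxidoreductase of the p53 cell death programme. Its normalized counts were 477 and 457 in the controls and 543 and 503 in the cadmium libraries, so the groups did not overlap, but the gap was small. Its log2 change was 0.16 (SE 0.29, 95% interval -0.41 to 0.74, DESeq2 adjusted p-value 1.00), and it stayed between 0.10 and 0.22 when any library was left out. The 40 nearest expressed genes had a median of -0.34, so that TP53I3 stood 0.50 above its neighbours on the log2 scale.

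SESN1 (ENSG00000080546, chromosome 6, 108984309 to 109094846, minus strand) encodes sestrin 1, which restrains mTORC1 growth signalling. It had normalized counts of 306 and 288 in the controls and 319 and 272 in the cadmium libraries, with 1 cadmium library above and 1 below both controls. The group means were nearly equal (log2 change -0.0046, SE 0.33, 95% interval -0.654 to 0.645, DESeq2 adjusted p-value 1.00). RRM2B (ENSG00000048392, chromosome 8, 102204502 to 102238961, minus strand) encodes p53R2, a subunit of ribonucleotide reductase that supplies nucleotides for DNA repair. Its normalized counts were 1363 and 1758 in the controls and 1603 and 1572 in the cadmium libraries, which again lay inside the control range, and the log2 change was 0.03 (SE 0.28, 95% interval -0.53 to 0.58, DESeq2 adjusted p-value 1.00).

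**Figure D2:**
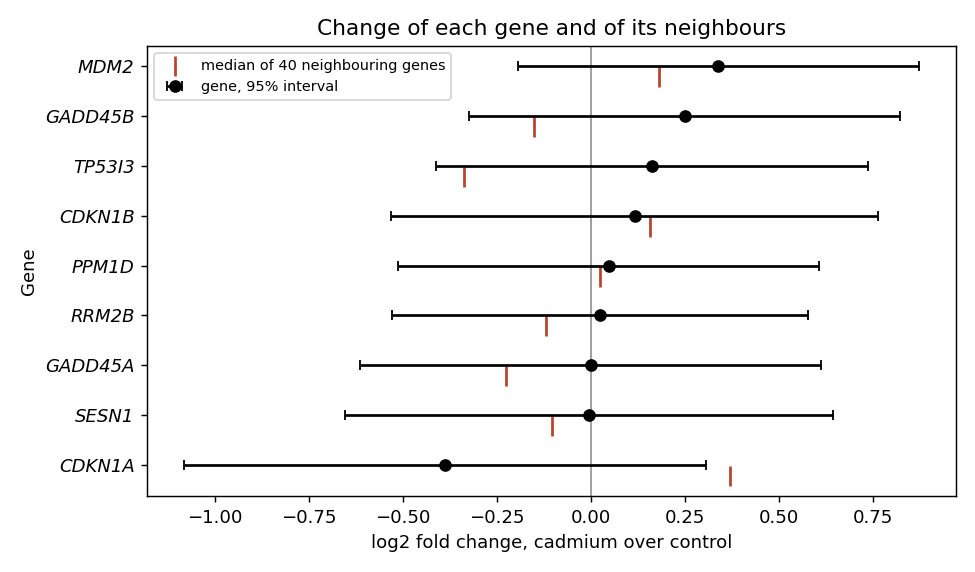
Log2 fold change, cadmium over control, of each of the 9 genes (points) with its 95% interval from DESeq2 (bars, n = 2 per group), and the median log2 fold change of the 40 nearest expressed genes (red ticks). All 9 intervals include 0, from CDKN1A at -0.39 to MDM2 at 0.34, and the neighbours of CDKN1A have a median of 0.37.

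In normalized counts both cadmium libraries lay above both controls in 3 of the 9 genes, MDM2, GADD45B and TP53I3, and below both controls in 0 of 9. Over all tested genes these shares were 20.3% and 19.9%. In TPM the groups overlapped for GADD45B, at 157 in control 3 and 153 in cadmium 2. For 6 of the 9 genes, CDKN1A, CDKN1B, MDM2, GADD45A, GADD45B and RRM2B, the controls were further apart than the cadmium libraries. For TP53I3, SESN1 and PPM1D it was the other way round.

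The difference between the control libraries was set beside that of neighbouring genes. The log2 ratio of control 3 over control 2 was 0.71 for CDKN1B and 0.61 for the median of its 40 neighbours. It was 0.35 for MDM2 beside 0.48, and -0.59 for GADD45A beside -0.40, and for PPM1D it was -0.18 beside -0.14, so these 4 genes differed between the controls in the same direction as the genes around them. CDKN1A did not, with a ratio of 0.80 beside -0.13 for its neighbours, and among the 12924 expressed genes 20.8% had a control ratio at least as large in either direction. GADD45B with 0.49 beside -0.21 and RRM2B with 0.37 beside -0.13 also went against their surroundings, as did SESN1 with -0.085 beside 0.12. TP53I3 had -0.06 where its neighbours had -0.67. What set the differences between the controls was not tested.

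**Figure D3:**
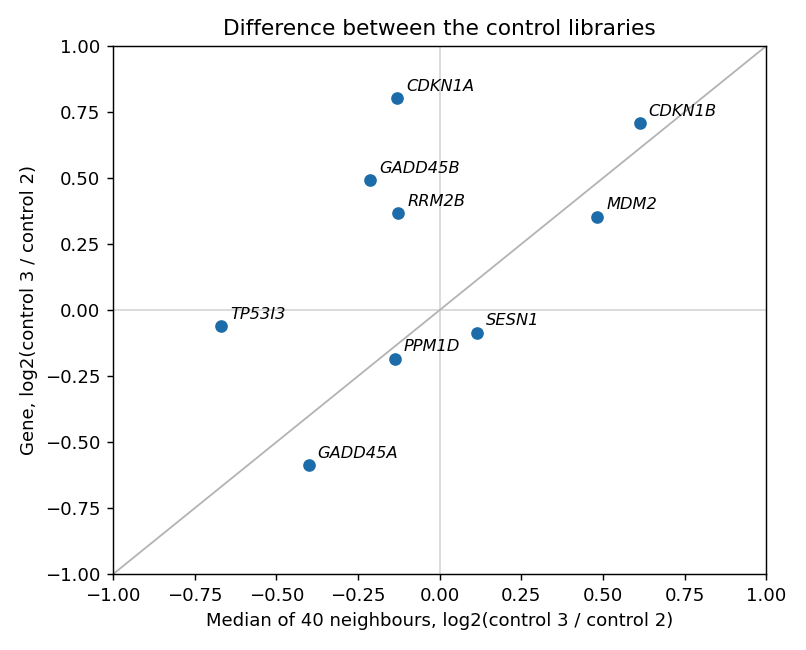
Log2 ratio of control 3 over control 2 for each of the 9 genes (vertical axis) against the median ratio of its 40 nearest expressed genes (horizontal axis), with a line of equality. CDKN1B, MDM2, GADD45A and PPM1D lie near the line, SESN1 lies at -0.085 beside 0.12, CDKN1A lies far above it at 0.80 and TP53I3 lies at -0.06 although its neighbours have -0.67.

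**Figure D4:**
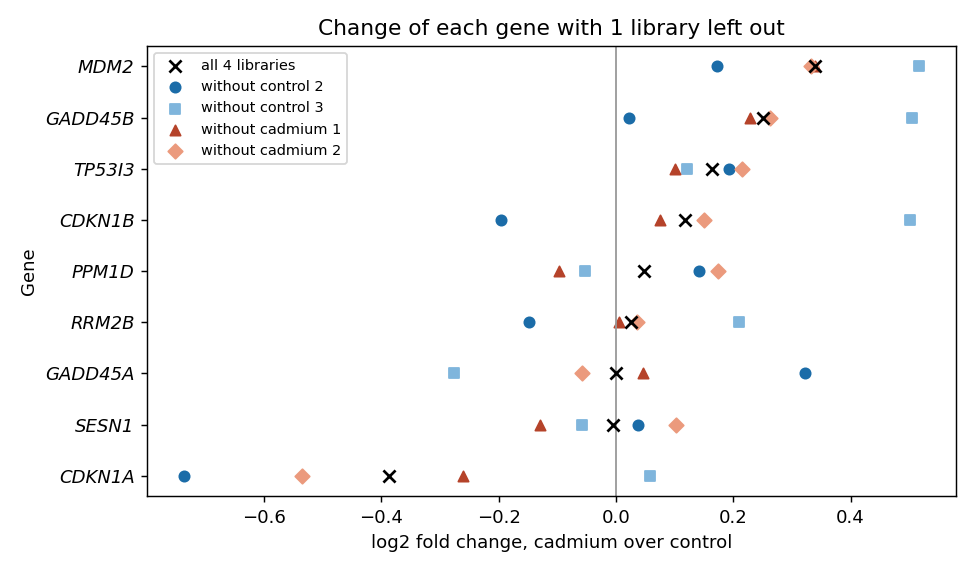
Log2 fold change, cadmium over control, of each of the 9 genes with all 4 libraries (crosses) and with each library left out (coloured points). Leaving out a control moves CDKN1A from -0.74 to 0.06 and CDKN1B from -0.20 to 0.50, while TP53I3 stays between 0.10 and 0.22.

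The genes whose pattern over the 4 libraries was nearest to that of CDKN1A, among 12923 expressed genes, were HOXC6, KCTD21, CCDC122, ENSG00000284691 and USP35. Their root mean square distances from CDKN1A on the log2 scale were 0.02 to 0.04 after each gene was centred on its mean. Because they were picked for likeness to CDKN1A, control 3 was the highest library in each of them. USP35, for example, had normalized counts of 857 and 1574 in the controls and 879 and 1056 in the cadmium libraries. The likeness rests on 4 libraries and is given as a description.

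Paralogs of the 9 genes and the other CDK inhibitors were examined next. Of the 9 paralogs 1 was called higher and 0 lower, beside 0.601% and 0.535% of all genes, and 4 were higher and 1 lower at an unadjusted p-value below 0.05, beside 6.92% of all genes in either direction. Of the 5 other CDK inhibitors, with CDKN1C counted in both lists, 0 were called, and 1 was higher and 2 were lower at an unadjusted p-value below 0.05. GADD45G (ENSG00000130222, chromosome 9, 89605012 to 89606555, plus strand), the third GADD45 gene, had 21 and 6 reads in control 2 and control 3 and 92 and 154 reads in cadmium 1 and cadmium 2. The groups did not overlap, although the values within each group differed widely. GADD45G rose from 13.1 ± 9.54 to 122 ± 42.8 normalized counts (SD, n = 2 per group), and its log2 change was 3.20 (SE 0.72, 95% interval 1.80 to 4.60, adjusted p-value 0.00226 by DESeq2). The median of its 40 neighbours was -0.05. The size of the change rested on the controls, with 4.25 without control 2 (DESeq2 adjusted p-value 2.24e-05) and 2.60 without control 3 (0.000712). The call was not made by edgeR (adjusted p-value 0.620) or limma-voom (adjusted p-value 0.669), which called no gene in the whole table. Nor was it made by DESeq2 without cadmium 1, where the log2 change was 3.52, and DESeq2 gave no adjusted p-value without cadmium 2. Even in cadmium-exposed cells GADD45G reached only 5.44 and 8.69 TPM, far below GADD45A at 121 and 126 TPM. The core of the metal response element was found on the opposite strand of its promoter at 2 places (chr9:89604932-89604954 and chr9:89604984-89605006, plus strand). The core was in a promoter window of 33.4% of all 27305 genes. Both places are shown because GADD45G was the only gene of these lists called.
GADD45G upstream: gccaatagGCGCGCAgcctcgcg
GADD45G nearer the start: atataaggGCGCGCAgcgtagta

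**Figure D5:**
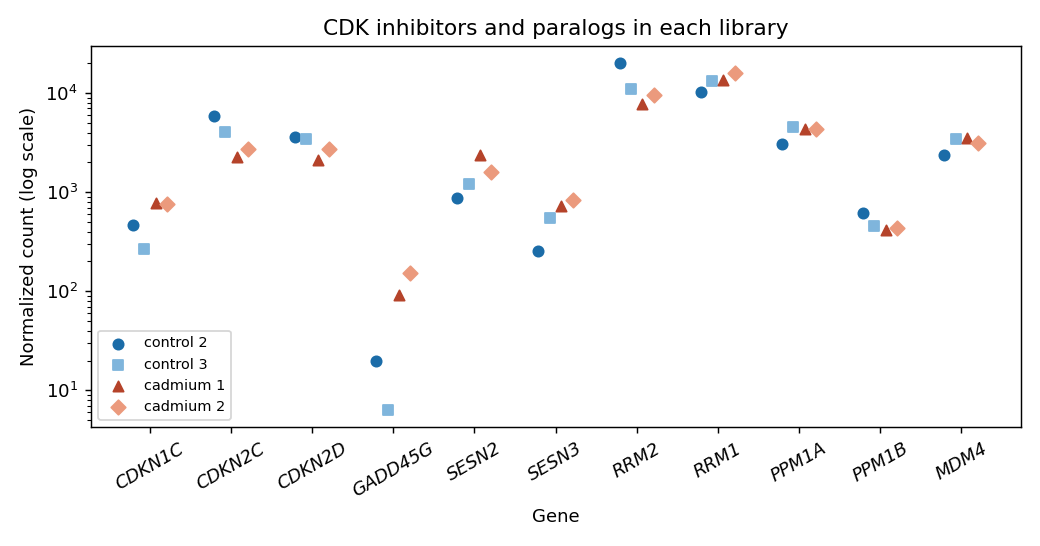
Normalized counts of the detected CDK inhibitors and of the paralogs of the 9 genes in each library, on a log axis, with 1 point per library. GADD45G lies at 6.38 and 19.9 in the controls and at 91.6 and 152 in the cadmium libraries, and CDKN2C lies at 4095 and 5897 in the controls and at 2251 and 2759 in the cadmium libraries.

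CDKN2A and CDKN2B, the neighbouring genes of p16 and p15 on chromosome 9, had 0 reads in all 4 libraries. Counting error alone allows up to 3 fragments in each library, and more reads than that because mates were counted singly. Loss of this locus is a known feature of the line. CDKN2C, which encodes the related inhibitor p18, had normalized counts of 5897 and 4095 in the controls and 2251 and 2759 in the cadmium libraries. Both cadmium libraries were below both controls, with a log2 change of -0.996 (SE 0.31, unadjusted p-value 0.00139), but the DESeq2 adjusted p-value was 0.115 and the gene was not called. It was called, at an adjusted p-value of 0.0864, when a gene had to have 10 counts in 2 libraries to enter the DESeq2 fit. DESeq2 did not call it with TMM factors (adjusted p-value 0.104), upper-quartile factors (0.169), halved counts (0.116) or all genes kept in the adjustment (0.193). Neither did edgeR (adjusted p-value 0.62) or limma-voom (0.669), which called no gene in the whole table. The log2 change of CDKN2C was -0.71 without control 2, -1.25 without control 3, -0.86 without cadmium 1 and -1.15 without cadmium 2. CDKN2D, which encodes p19, had a log2 change of -0.55 (DESeq2 adjusted p-value 0.701), which lay between -0.75 and -0.39 when any library was left out. CDKN1C, which encodes p57, had 470 and 269 normalized counts in the controls and 776 and 759 in the cadmium libraries. The groups did not overlap, and the log2 change was 1.05 (DESeq2 adjusted p-value 0.254). It was 1.51 without control 2 and 0.70 without control 3. Per length CDKN1C was the least abundant of the CDKN1 genes, at 24.6 and 23.2 TPM in the cadmium libraries, below CDKN1B and CDKN1A there.

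The sestrin paralogs SESN2 and SESN3 had log2 changes of 0.94 and 0.95, and their DESeq2 adjusted p-values were 0.284 and 0.572. SESN2 had 879 and 1202 normalized counts in the controls and 2402 and 1595 with cadmium, and SESN3 had 255 and 553 beside 718 and 842. Both cadmium libraries were above both controls in either gene, and neither passed the test with all libraries. SESN3 had a log2 change of 0.49 without control 2 and 1.60 without control 3, and SESN2 had 0.73 and 1.17 in turn. RRM2, the S-phase partner of RRM1 that RRM2B can replace, had normalized counts of 20032 and 11062 in the controls and 7796 and 9684 in the cadmium libraries, which gave a log2 change of -0.83 (DESeq2 adjusted p-value 0.513). It was -0.34 without control 2 and -1.21 without control 3. Its 40 neighbours had a median of -0.32. RRM1, PPM1A, PPM1B and MDM4 had log2 fold changes between -0.35 and 0.33 with DESeq2 adjusted p-values of 0.995 to 1.00. Without control 3 the changes of RRM1, PPM1A and MDM4 were 0.52, 0.49 and 0.46, and without control 2 they were 0.15, -0.06 and -0.06.

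Other p53 target genes were taken as a list of 36, which does not include the 9 genes but shares SESN2 with the paralogs. None was called higher or lower, and 3 were higher and 5 lower at an unadjusted p-value below 0.05, beside 6.92% of all genes in either direction. The 35 that averaged 10 normalized counts or more had a median log2 change of -0.01, with 17 above 0 and 18 below. Apart from SESN2, the lowest p-values belonged to NINJ1, BTG2 and TNFRSF10D. NINJ1, a membrane protein of cell rupture, had 1994 and 2985 normalized counts in the controls and 1211 and 1482 in the cadmium libraries (log2 fold change -0.89, DESeq2 adjusted p-value 0.287). BTG2, an antiproliferative gene, had 190 in control 2 but 31.9 in control 3, beside 17.9 and 27.6 in the cadmium libraries, and control 2 thus stood apart (log2 fold change -2.29, DESeq2 adjusted p-value 0.325). TNFRSF10D, a decoy receptor for TRAIL, had 1647 and 3826 in the controls and 6378 and 5400 in the cadmium libraries (log2 fold change 1.11, DESeq2 adjusted p-value 0.338). Its log2 change was 0.62 without control 2 and 1.83 without control 3. It was 0.98 without cadmium 1 and 1.22 without cadmium 2. For NINJ1 the log2 change was -1.15 without control 2 and -0.58 without control 3. For BTG2 it was -3.07 without control 3 and -2.01 without cadmium 1. Both of these BTG2 values include the high control 2. The fits without control 2 and without cadmium 2 gave BTG2 no adjusted p-value and are not shown. Values of these p53 targets thus lay on both sides of 0.

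Of 14 p53 family members and regulators, 0 were called, with 0 higher and 1 lower at an unadjusted p-value below 0.05, beside 6.92% of all genes, and a median log2 fold change of -0.05. The lower one was CHEK2, the checkpoint kinase that phosphorylates p53 after DNA breaks. It had 753 and 780 normalized counts in the controls and 459 and 480 in the cadmium libraries, so both pairs were tight and the groups were apart. The log2 change of CHEK2 was -0.71 (SE 0.28, unadjusted p-value 0.0118, DESeq2 adjusted p-value 0.378) and lay between -0.74 and -0.68 when any library was left out. Neither edgeR (adjusted p-value 0.62) nor limma-voom (adjusted p-value 0.669) called CHEK2, but they called no gene in the whole table. ATM, the kinase upstream of CHEK2, had a log2 change of 0.50 (DESeq2 adjusted p-value 0.811). The change of ATM was 0.29 without control 2 and 0.73 without control 3. PRKDC and TP53BP1 had log2 fold changes of -0.17 and -0.16.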

How the data were processed

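RNA-seq libraries of MDA-MB-231 cells, 2 control and 2 cadmium-exposed, were analysed. The authors trimmed the reads with bbduk, used hisat2 to align them to hg38 and counted them on Ensembl genes with featureCounts 2.0.1, and the deposited values are raw counts of reads per gene with the exon length of each gene. Per the file headers, strand was ignored and mates were counted singly. Control columns are numbered 2 and 3 in the table, A and B in its command line and 1 and 2 in the labels, so they carry a group but no replicate number. Labels do not say that libraries came from separate cultures in the cadmium group, so p-values measure the spread between these libraries.

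Symbols matched 61369 of 61541 identifiers. DESeq2 1.42.0 in R 4.3.3 was used, the tool of the study, with its defaults (Wald test, two-sided, median-of-ratios size factors, Benjamini-Hochberg adjustment over the 19816 genes averaging 7.69 normalized counts or more, threshold 0.1). Alternatives used edgeR 4.0.16 (quasi-likelihood test with TMM factors) and limma 3.58.1. TPM values were computed from counts and exon lengths. Neighbours were 20 expressed genes on each side. Named genes were the 9 genes, the paralogs, the other CDK inhibitors and, from 4 further lists, called genes and the 4 with the lowest p-value averaging 50 normalized counts or more. Some genes of the rule and of the marker lists are not reported here. Members and lists were chosen with earlier results of these data known. The fit was tested on simulated data. Plots used Python 3.11.15.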

Additional observations from a re-analysis of the deposited data

How the results depend on the processing

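No paired analysis was possible because neither control column has a number that can be tied to its label, and the planned block on replicate number was left out. Over all genes, DESeq2 called 119 higher and 106 lower, and edgeR and limma-voom called 0 and 0, with 1506 and 1423 genes at an unadjusted p-value below 0.05. Upper-quartile scaling gave 152 higher and 88 lower, which moved the median of expressed genes by 0.06 on the log2 scale. Leaving out a library gave 9 to 2678 genes called higher and 5 to 3511 called lower: 1150 and 1161 without control 2, 2678 and 3511 without control 3, 12 and 5 without cadmium 1, and 9 and 5 without cadmium 2. Of the 9 genes 0 to 3 were then called higher and 0 to 1 lower. In the other alternatives 0 of the 9 genes were called. Where a group was left with 1 library, that library was assumed to vary like the others.

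Values near 0 changed sign with the method, and some further from 0 did so when a library was left out. GADD45A had a log2 fold change of 0.004 with edgeR, 0.0266 with limma-voom, 0.0611 with upper-quartile factors, 0.0063 with a minimum of 10 counts in 2 libraries and 0.002 with halved counts. SESN1 had 0.0563, 0.0016 and 0.0001 with the last 3 of these settings in turn. Minus the median of its neighbours, SESN1 had 0.10. When a library was left out the ranges were -0.74 to 0.0576 for CDKN1A, -0.20 to 0.50 for CDKN1B, -0.28 to 0.32 for GADD45A, -0.13 to 0.10 for SESN1, -0.15 to 0.21 for RRM2B, -0.10 to 0.17 for PPM1D, -0.0647 to 0.49 for PPM1A and -0.0561 to 0.46 for MDM4. The cause of these changes was not tested.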

Other observations

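The machinery that CDK inhibitors act on was examined as a list of 17 genes of the passage from G1 into S phase. None was called, with 1 higher and 3 lower at an unadjusted p-value below 0.05, beside 6.92% of all genes in either direction, and a median log2 fold change of -0.13. E2F1, which drives S-phase genes, had 10455 and 8043 normalized counts in the controls and 5767 and 6141 in the cadmium libraries, so that the groups were apart (log2 fold change -0.64, DESeq2 adjusted p-value 0.491). E2F2 had 1690 and 773 in the controls and 615 and 572 in the cadmium libraries (log2 fold change -1.05, DESeq2 adjusted p-value 0.392). E2F3 had the opposite sign, with 3492 and 3117 in the controls and 5299 and 4494 in the cadmium libraries (log2 fold change 0.57, DESeq2 adjusted p-value 0.594). It lies on chromosome 6, where its 40 neighbours had a median of 0.29. SKP2, which marks p27 for degradation, had a log2 change of -0.68 (DESeq2 adjusted p-value 0.601). None of these values passed the test with all libraries. Without control 2 the log2 changes were -0.44 for E2F1, -0.38 for E2F2, 0.65 for E2F3 and -0.37 for SKP2. Without control 3 they were -0.82, -1.52, 0.48 and -0.95.

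Of 13 stress factors that can act on CDKN1A or GADD45 genes without p53, 0 were called, with 1 higher and 0 lower at an unadjusted p-value below 0.05, beside the same share of all genes, and a median log2 fold change of 0.23. DDIT3, a factor of the unfolded protein response, had 404 and 951 normalized counts in the controls and 1480 and 1155 in the cadmium libraries. The log2 change of DDIT3 was 0.96 (unadjusted p-value 0.0312, not called by DESeq2), 0.47 without control 2 and 1.69 without control 3. SMAD3 had a log2 change of -0.37 beside a median of -0.33 for its 40 neighbours. The change of SMAD3 was -0.32 without control 2 and -0.43 without control 3. FOXO1 and FOXO3 had log2 changes of -0.58 and 0.34, which became -0.98 and 0.57 without control 2, and -0.04 and 0.12 without control 3. In this list the controls differed by a median absolute log2 ratio of 0.95, against 0.17 for the cadmium libraries.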
